A study of Mus musculus with 18 samples.

Results

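Zscan4 and a small group of further genes of the two-cell stage were followed by RNA-seq through the differentiation of mouse cells with and without TET enzymes. The group was fixed by symbol and comprised 10 genes: Zscan4b, Zscan4c, Zscan4d, Zscan4e, Zscan4f, Zfp352, Tdpoz3, Tdpoz4, Tcstv1 and Tcstv3. Of these, 9 were measured among the 25239 genes of the count table and Zscan4e was not analysed here. All 9 passed the filter on low counts that left 16582 genes. The genes were chosen by their levels in these same libraries, so every level, difference and call of theirs given here is a description. This holds for counts of calls or of p-values by any method, for interactions and for fits with libraries left out. Such counts come from genes picked by the same values and are not support for a difference. No p-value of a member is printed. A member was able to pass the filter through the conditions in which it was high alone.

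There were 18 libraries, 2 for each of 9 conditions, made from E14Tg2a, a line of mouse embryonic stem cells, and from TKO cells derived from it. TKO cells carried the genotype Tet1-/-, Tet2-/-, Tet3-/-, in which the open reading frames were cut out with CRISPR/Cas9 and a pair of guides, and came from a single clone, so that clone and genotype cannot be told apart. Wild-type and TKO epiblast-like cells (EpiLCs) were made with Activin A and Fgf from cells kept in 2i/LIF. Aggregates were then cultured in GK15 medium without cytokines for 2 days and 6 days (both genotypes), or with BMP4, BMP8a, SCF, LIF and EGF for 2 days (TKO) and 6 days (both genotypes), the cytokine mixture that is used to obtain primordial germ cell-like cells (PGCLCs). The methods describe the wild-type cells at day 6 with cytokines as sorted by SSEA1 and by the integrin CD61, and the remaining day 2 and day 6 samples as whole aggregates, whereas the labels call all of them aggregates. Wild-type cells at day 2 with cytokines were not analysed here.

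In the mouse embryo the zygotic genome is switched on at the two-cell stage, and a wave of genes that includes Zscan4, Zfp352, Tdpoz and Tcstv is transcribed for a short time. In cultures of embryonic stem cells the same genes appear in rare cells that pass briefly through a two-cell-like state. Zscan4 proteins carry a SCAN domain and zinc fingers and are known for their part in telomere maintenance, Zfp352 encodes a zinc finger protein, Tdpoz genes encode proteins with TRAF and POZ domains, and Tcstv stands for the two-cell-stage variable group. The transcription factor Dux activates this programme, and DPPA2 and DPPA4 act upstream of it.

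The Zscan4 copies lie in a cluster on chromosome 7. In GRCm38 (mm10), with the GENCODE M21 annotation, Zscan4b occupies chr7:10900740-10905050 on the minus strand, Zscan4c chr7:11005745-11010547 on the plus strand, Zscan4d chr7:11161374-11166159 on the minus strand and Zscan4f chr7:11397915-11402318 on the plus strand. From the pseudogene Zscan4a to Zscan4f the cluster spans 608 kb. Zscan4e, at chr7:11306378-11310682, is annotated as protein-coding by GENCODE and as a pseudogene by RefSeq. Zfp352 lies at chr4:90218820-90225702, Tdpoz4 and Tdpoz3 are neighbours at chr3:93796398-93797510 and chr3:93826020-93827117, and Tcstv1 and Tcstv3 lie at chr13:119893388-119894785 and chr13:120316878-120318178.

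Promoter sequences of RefSeq (GRCm38.p6) were found for 6 of the 10 genes, namely Zscan4b, Zscan4c, Zscan4d, Zscan4f, Zfp352 and Tdpoz4. The 250 bases before the start are printed for Zscan4c and Zscan4d, the copies with the highest counts, to show how close the copies are, and for Zfp352 as a member outside the cluster. Capitals mark 3 motifs searched on both strands: TGATNNAATCA, TATAAAA and TAATCC. The motifs were picked after the promoters had been read.
Zscan4c, chr7:11005495-11005744, plus strand: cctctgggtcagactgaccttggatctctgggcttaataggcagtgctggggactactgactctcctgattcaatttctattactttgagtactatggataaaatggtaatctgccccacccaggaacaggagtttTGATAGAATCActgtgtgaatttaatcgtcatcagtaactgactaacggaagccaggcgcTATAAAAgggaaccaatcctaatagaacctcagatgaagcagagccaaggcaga
Zscan4d, chr7:11166149-11166398, minus strand: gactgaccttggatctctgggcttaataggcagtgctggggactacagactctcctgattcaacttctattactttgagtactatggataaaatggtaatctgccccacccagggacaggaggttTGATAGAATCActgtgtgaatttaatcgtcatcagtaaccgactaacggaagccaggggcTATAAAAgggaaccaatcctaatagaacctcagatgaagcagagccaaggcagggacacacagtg
Zfp352, chr4:90218570-90218819, plus strand: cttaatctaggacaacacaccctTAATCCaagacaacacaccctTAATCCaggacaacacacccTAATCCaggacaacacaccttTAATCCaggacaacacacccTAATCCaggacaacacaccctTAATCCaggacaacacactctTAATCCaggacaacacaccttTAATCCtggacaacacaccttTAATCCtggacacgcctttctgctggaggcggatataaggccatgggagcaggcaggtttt

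The 4 Zscan4 promoters were alike over these windows, with between 94.7% and 99.6% identity in 6 pairwise local alignments. Each held TGATNNAATCA once, with the letters TGATAGAATCA, and TATAAAA once, between 31 and 65 bases before the annotated start. Of 27025 promoters of the same length, 0.196% held the first motif and 5.32% the second. Zfp352 held neither, but carried TAATCC 9 times, a motif that 6.43% of the promoters held at least once and that 1 of the 27025 promoters, its own, held this often. Tdpoz4 had none of the 3. These matches describe the letters of the windows, and binding of a factor was not measured.

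How far the copies can be told apart by reads bears on each level below, because reads shared between copies are taken here as not counted. Over the longest annotated transcripts the Zscan4 copies, Zscan4a and Zscan4e included, were between 94.1% and 97.8% identical in 15 pairs, Tcstv1 and Tcstv3 were 84.3% identical, and Tdpoz3 and Tdpoz4 77.1%. Of all windows of 50 bases in the Zscan4d transcript, 50.4% occurred in no other annotated transcript. This share was 14.5% for Zscan4c, 9.65% for Zscan4b and 4.66% for Zscan4f. With windows of 100 bases the shares rose to 70.4%, 27.2%, 21.3% and 10.5%. Zfp352 was nearly free of shared sequence, with 92.9% of its 50-base windows unique. For the remaining genes the 50-base share was 33.8% in Tdpoz3, 58.8% in Tdpoz4, 83.2% in Tcstv1 and 68.6% in Tcstv3. A count of Zscan4f or Zscan4b therefore rests on a small part of the transcript, and levels between copies are uncertain.

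Libraries held between 11286050 and 41257861 counts, with a median of 16305168, and Rn45s, the ribosomal RNA precursor, took between 16.2% and 47.6% of them. Summed counts of 4 formative markers ranged from 52890 to 57810 normalised counts in wild-type EpiLCs and from 24300 to 25500 in TKO EpiLCs, and were under these ranges in every other condition. Dnmt3b made up most of the sum in EpiLCs, with means of 45490 in wild-type and 17440 in TKO cells. Pou3f1 was also lower in TKO EpiLCs (6327 against 2571). Fgf5 was alike (2097 and 2182), and Otx2 was higher in TKO EpiLCs (1438 against 2706). Tet1 stood at 6227 and 6036 normalised counts in wild-type EpiLCs and at 737 and 966 in TKO EpiLCs, and Tet3 at 821 and 1019 against 131 and 159. Tet2 was at 186 and 125 against 31.8 and 102. At day 2 without cytokines Tet1 did not separate the genotypes, with 2028 and 1754 in wild-type and 1937 and 1200 in TKO libraries, and Tet2 was higher in TKO libraries, with 287 and 200.4 against 355 and 405. Gene counts include exon sequence outside the excised reading frames, so they are a partial check of the labels.

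Zscan4d reached the highest level of the group, and is also the Zscan4 copy with the largest share of unique sequence. Levels are counts divided by the size factor of the library, called normalised counts. In the 2 wild-type EpiLC libraries Zscan4d had 20.9 and 16.1 normalised counts, at day 2 without cytokines 5.85 and 11.65, at day 6 without cytokines 0 in both, and at day 6 with cytokines 9.04 and 14.8. In TKO EpiLCs it was 0 in both libraries. TKO cells then had 120.4 and 128.6 at day 2 without cytokines, 48.7 and 128 at day 2 with cytokines, 1078 and 1405 at day 6 without cytokines, and 1730 and 1690 at day 6 with cytokines. The 4 day 6 TKO libraries stood apart from all others, and the day 2 TKO libraries stood between them and the wild-type libraries.

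Zscan4c was likewise highest in the day 6 TKO libraries. It had 6.43 and 7.78 normalised counts in wild-type EpiLCs, 0.975 and 4.66 at day 2, 0 and 0 at day 6 without cytokines, and 11.1 and 21.9 at day 6 with cytokines. In TKO cells it had 0 and 6.60 in EpiLCs, 77.8 and 75.7 at day 2 without cytokines, 24.9 and 91.85 at day 2 with cytokines, 819 and 885 at day 6 without cytokines, and 1376 and 1389 at day 6 with cytokines. The pair at day 2 with cytokines was unequal, with replicate 1 the lower, and that library was also the lower of its pair for Zscan4d, Zscan4f, Zfp352, Tdpoz3, Tdpoz4 and Tcstv3, but the higher for Zscan4b.

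Zscan4f reached 964 and 985 normalised counts and Zscan4b 356 and 258 at day 6 in TKO cells with cytokines, against 534 and 569, and 295 and 286.5, without them. In wild-type cells Zscan4f lay between 0 and 19.3 and Zscan4b between 0 and 6.12 over 8 libraries. In wild-type EpiLCs the 4 copies summed to 43.0 ± 7.35 normalised counts (SD, n = 2), followed by 18.3 ± 3.80 at day 2, 0 at day 6 without cytokines and 37.7 ± 15.9 at day 6 with cytokines. In TKO cells the sum was 4.40 ± 6.22 in EpiLCs, 289 ± 4.63 and 205 ± 123 at day 2 without and with cytokines, and 2936 ± 296 and 4374 ± 73.5 at day 6. A count of 0 in both day 6 wild-type libraries without cytokines allows up to 3 counts, which is 1.36 and 3.47 normalised counts in these libraries. In bulk samples of this kind, fewer cells of a type and less RNA per cell cannot be told apart.

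**Figure D1:**
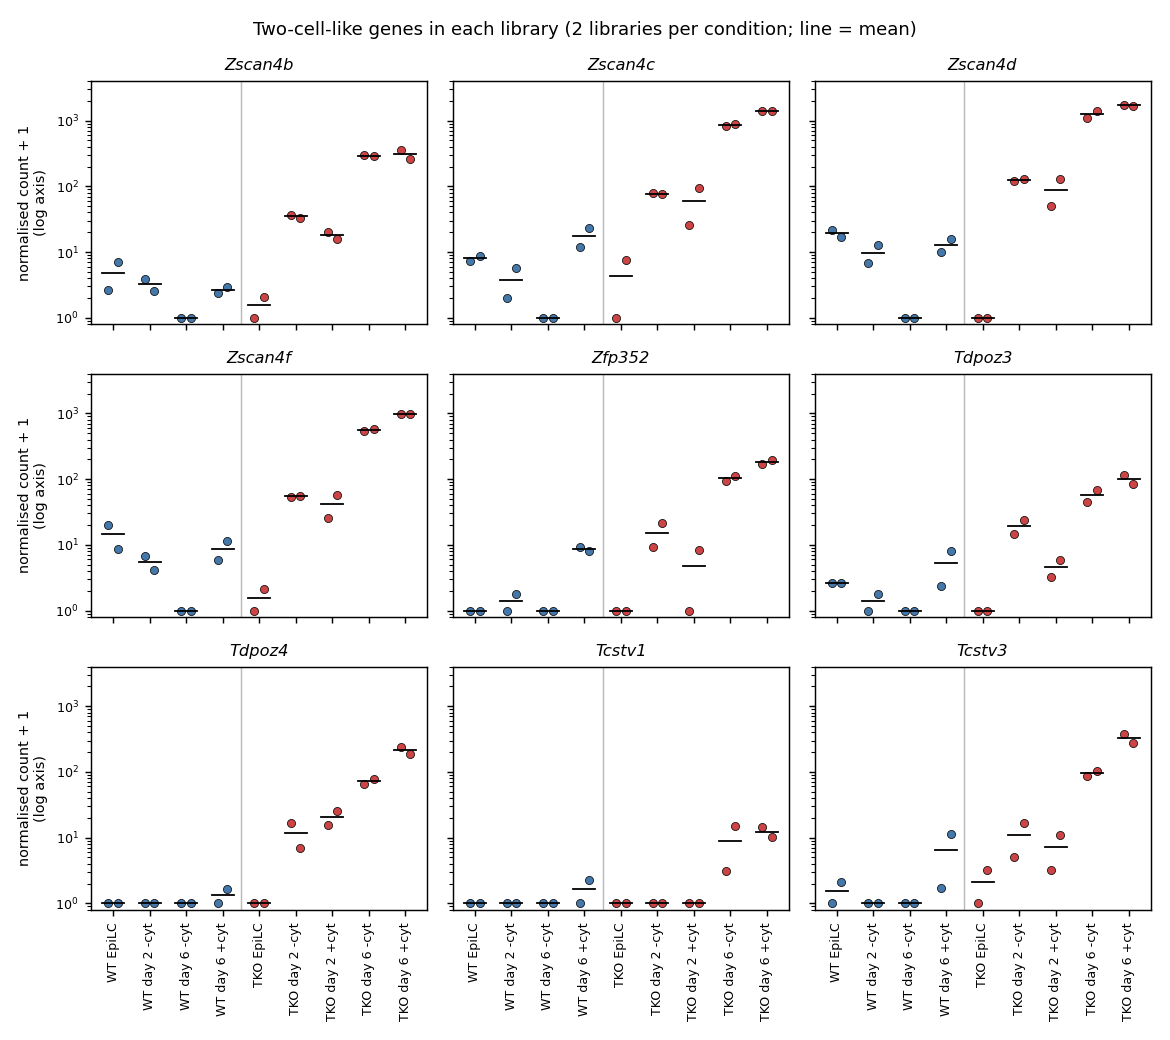
Normalised counts plus 1 (log axis) of the 9 measured genes in each of the 18 libraries, by condition (x axis, with and without cytokines marked +cyt and -cyt), with blue points for wild-type, red points for TKO and a line at the mean of 2 libraries. The day 6 TKO libraries hold the highest values of each gene, while the wild-type day 6 libraries without cytokines sit at 0 counts for all 9.

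Zfp352, whose transcript shares little sequence with others, was also highest at day 6 in TKO cells, at lower counts. It was at 0 in both wild-type EpiLC libraries, at 0 and 0.777 normalised counts at day 2, at 0 and 0 at day 6 without cytokines and at 8.34 and 7.08 at day 6 with cytokines. TKO EpiLCs had 0 and 0. TKO cells had 8.30 and 20.4 at day 2 without cytokines, 0 and 7.45 at day 2 with cytokines, 93.7 and 112.3 at day 6 without cytokines and 169.7 and 196.3 at day 6 with cytokines. Unlike the Zscan4 copies, Zfp352 was thus not detected in EpiLCs of either genotype, while wild-type day 6 cells with cytokines overlapped the day 2 TKO cells with cytokines.

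The neighbouring genes Tdpoz3 and Tdpoz4 differed in detail. Tdpoz3 had 13.5 and 22.8 normalised counts at day 2 in TKO cells without cytokines and 2.27 and 4.97 with them, whereas Tdpoz4 had 15.6 and 6.01 without and 14.7 and 24.8 with cytokines. At day 6 Tdpoz3 had 44.15 and 68.15 without cytokines and 112.5 and 83.8 with them in TKO cells, and Tdpoz4 64.6 and 78.25, and 240.2 and 187. In wild-type cells Tdpoz3 reached at most 7.08, in replicate 2 at day 6 with cytokines, and Tdpoz4 was represented by 1 count in all 8 libraries.

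Of the Tcstv genes, Tcstv3 carried nearly all counts. It had 381 and 275.5 normalised counts at day 6 in TKO cells with cytokines, 86.1 and 103.5 without them, and between 2.27 and 15.6 over the 4 day 2 TKO libraries. Wild-type cells at day 6 with cytokines had 0.695 and 10.3, an unequal pair, and the other 6 wild-type libraries between 0 and 1.11. Tcstv1 was at 0 in 13 of 18 libraries and did not exceed 13.9 normalised counts, the value of replicate 2 at day 6 in TKO cells without cytokines.

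Between genes, levels were compared per kilobase of annotated exon at day 6 in TKO cells with cytokines. This scale does not correct for sequence that the copies share. Of 100-base windows 70.4% were unique in Zscan4d and 10.5% in Zscan4f, so the order of the Zscan4 copies is uncertain. Zscan4d stood first with 753 ± 12.45 normalised counts per kilobase (SD, n = 2), followed by Zscan4c with 607 ± 4.04, Zscan4f with 497.5 ± 7.51 and Tcstv3 with 422 ± 96.0. Tdpoz4 with 192 ± 33.7 and Zscan4b with 170.5 ± 38.4 overlapped, and Tdpoz3 with 89.4 ± 18.5 overlapped Zfp352 with 80.4 ± 8.26. Tcstv1 came last with 8.09 ± 2.15. The libraries of Tcstv3, at 489.5 and 354, lay below those of Zscan4f, at 492 and 503, by less than the gap within its own pair.

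Across conditions, all 9 genes had their highest mean at day 6 in TKO cells with cytokines and their next highest at day 6 in TKO cells without them. The libraries of these conditions overlapped for Zscan4b and Tcstv1. The day 2 TKO conditions came next for the Zscan4 copies, with and without cytokines overlapping for Zscan4c, Zscan4d and Zscan4f but not for Zscan4b. At the low end the wild-type EpiLCs, wild-type day 2 cells, wild-type day 6 cells with cytokines and TKO EpiLCs had neighbouring positions that mostly overlapped.

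Within the Zscan4 counts, the copies kept the order Zscan4d, Zscan4c, Zscan4f and Zscan4b in all 4 TKO aggregate conditions. Zscan4d held 43.1% of the counts of the 4 copies at day 2 without cytokines (exact 95% binomial interval 38.7% to 47.4%, 223 of 518 counts) and 39.1% at day 6 with cytokines (37.9% to 40.3%, 2502 of 6400). Zscan4c held 26.6% (22.9% to 30.7%) and 31.7% (30.6% to 32.9%) in these conditions, Zscan4f 18.5% and 22.4%, and Zscan4b 11.8% and 6.83%. Wild-type day 6 cells with cytokines differed in that Zscan4c came first, with 43.9% of 114 counts (34.6% to 53.5%), ahead of Zscan4d with 31.6% (23.2% to 40.95%). This order was the same in both of their libraries, where Zscan4c held 42.1% and 44.7%, against 31.1% and 32.1% in the TKO libraries. In TKO EpiLCs all 8 Zscan4 counts came from replicate 2, with 6 of Zscan4c and 0 of Zscan4d, which allows a Zscan4d share of up to 36.9% by the exact interval. These intervals cover counting error only, and the shares also carry the unequal unique sequence of the copies.

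**Figure D2:**
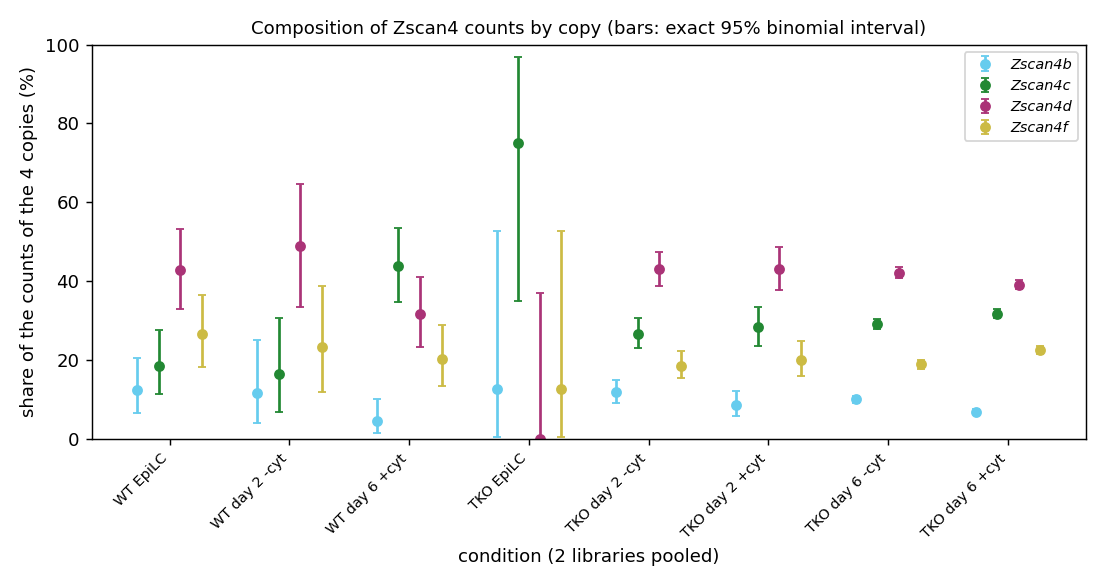
Share of each Zscan4 copy (y axis, percent) in the counts of Zscan4b, Zscan4c, Zscan4d and Zscan4f summed over 2 libraries, for the 8 conditions with any count (x axis), with bars for the exact 95% binomial interval. Zscan4d leads in wild-type EpiLCs, wild-type day 2 cells and the 4 TKO aggregate conditions, and Zscan4c leads in wild-type day 6 cells with cytokines and in the 8 counts of TKO EpiLCs.

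The paper describes the replicates of its RNA-seq as biological (n = 2), while the labels do not say whether they came from separate cultures. The p-values and SDs measure the spread between these libraries. The first question was how the genes differed between TKO and wild-type cells in the same culture. In EpiLCs the direction was downwards. The summed Zscan4 level was 0 and 8.80 normalised counts in TKO and 48.2 and 37.8 in wild-type libraries. Zscan4d was at least 5.90-fold lower, set against a floor of 3 counts for each library at 0, and Zscan4f had a ratio of 0.0486 (95% counting interval 0.00119 to 0.296). A gene was called when its Benjamini-Hochberg adjusted p from edgeR's quasi-likelihood test lay below 0.05 while its fitted difference exceeded 2 on the log2 scale. Where a group was at 0, the fitted difference depends on the offset that the fit adds to counts of 0. The bound of a called gene can then lie under 2. Of the 9 genes, 2 were called lower in TKO EpiLCs and 0 higher, where 0.597% of all genes tested were called lower. Without replicate 1 of the wild-type EpiLCs or replicate 1 of the TKO EpiLCs, 1 of the 9 was called.

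At day 2 without cytokines the direction was upwards. TKO cells exceeded wild-type cells by a log2 fold change of 3.74 ± 0.46 (SE, n = 2 per group) for Zscan4d, 4.59 ± 0.74 for Zscan4c, 3.86 ± 0.56 for Zscan4b and 3.55 ± 0.54 for Zscan4f. Zfp352, with 1 wild-type count, had a ratio of 32.2 (5.27 to 1322), Tdpoz3 one of 41.2 (6.885 to 1678), and Tdpoz4 and Tcstv3 were at least 4.11-fold and 3.76-fold higher. Tcstv1 was at 0 in all 4 libraries. The other 8 genes were called higher, where 9.43% of all genes were.

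At day 6 without cytokines all 9 genes were at 0 in both wild-type libraries, so that folds are lower bounds. Zscan4d was at least 513.5-fold higher in TKO cells, Zscan4c at least 352.5-fold, Zscan4f at least 228-fold, Zscan4b at least 120.3-fold, Zfp352 at least 42.6-fold, Tcstv3 at least 39.2-fold, Tdpoz4 at least 29.55-fold, Tdpoz3 at least 23.2-fold and Tcstv1 at least 3.32-fold. All 9 were called higher, where 14.4% of all genes were. With every gene at its bound the median log2 fold change of the 9 was 5.41, beside 0.01 over all genes tested. In the same libraries the summed level of 5 neural markers lay between 21770 and 24010 normalised counts in wild-type and between 1478 and 2080 in TKO cells, with Neurog2 at 1.08 and 0 in the latter, and that of 6 naive stem cell markers between 130 and 281 in wild-type and between 14720 and 14970 in TKO cells. Their part in the difference was not tested.

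With cytokines at day 6 both genotypes had counts, which allows fitted differences. TKO cells exceeded wild-type cells by a log2 fold change of 7.42 ± 0.55 for Zscan4b, 7.14 ± 0.45 for Zscan4d, 6.97 ± 0.49 for Zscan4f and 6.37 ± 0.58 for Zscan4c (SE, n = 2 per group). Tcstv3 differed by 5.84 ± 0.87, Zfp352 by 4.55 ± 0.71 and Tdpoz3 by 4.47 ± 0.68, and Tdpoz4, with 1 wild-type count, had a ratio of 624 (111.2 to 24740). Of the 9, 8 were called higher, where 4.58% of all genes were. Tcstv1, with 2 wild-type counts and a ratio of 16.3 (3.84 to 146), was the one not called. The wild-type cells of this comparison are the ones described as sorted, so sorting and genotype cannot be told apart. The summed level of 5 PGCLC markers was 6666 to 8349 in these wild-type and 2879 to 3528 in the TKO libraries, and that of the naive markers 26340 to 28440 against 28290 to 28810.

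**Figure D3:**
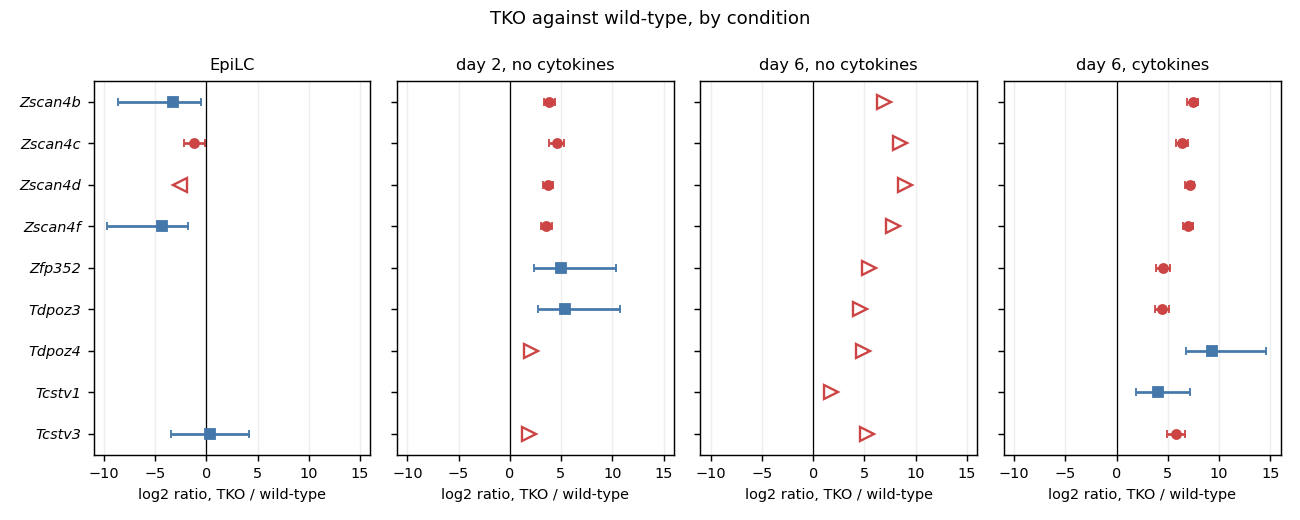
Log2 ratio of TKO to wild-type (x axis) for the 9 genes (y axis) in 4 conditions. Red circles are fitted log2 fold changes with their SE, blue squares are ratios of counts with a 95% counting interval where a group had 1 to 3 counts, open triangles are bounds where a group was at 0, and genes at or under the floor in both groups have no mark. The ratios lie below 0 in EpiLCs for the 4 Zscan4 copies, with Tcstv3 near 0, and above 0 for every marked gene in the other 3 conditions.

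The second question was how the cytokines mattered. In wild-type cells at day 6 they separated detection from no detection. The 9 genes had 53 and 117 counts in all with cytokines and 0 and 0 without. Zscan4c was at least 6.83-fold higher, Zscan4d at least 4.93-fold, Zfp352 at least 3.19-fold and Zscan4f at least 3.14-fold, and 7 of the 9 were called higher, where 12.7% of all genes were. Of the 7, Zscan4b was at or under the floor in both conditions. Only the bounds of Zscan4c and Zscan4d lay beyond 2 on the log2 scale. The other calls depend on the offset that the fit adds to counts of 0. With every gene at its bound the median log2 fold change of the 9 was 1.185. Leaving out replicate 1 of the wild-type libraries at day 6 without cytokines, or replicate 2 of those with cytokines, left 4 called. The cells with cytokines are the ones described as sorted, so cytokines and sorting cannot be told apart. Neural markers, at 21770 to 24010 without cytokines, summed to 398 to 464.5 with them. Their part was not tested.

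The wild-type folds above are bounds, so the cytokine effects cannot be ranked between the genotypes for every gene. In TKO cells all 9 genes had counts in both media at day 6. At day 6 the log2 fold change with cytokines was 0.48 ± 0.32 for Zscan4d, 0.71 ± 0.44 for Zscan4c, 0.84 ± 0.35 for Zscan4f, 0.09 ± 0.36 for Zscan4b, 0.85 ± 0.60 for Zfp352, 1.60 ± 0.50 for Tdpoz4 and 1.81 ± 0.70 for Tcstv3 (SE, n = 2 per group). By edgeR 0 of the 9 genes were called, 3 had an unadjusted p under 0.05, and DESeq2 also called 0, where 1.86% of all genes were called in either direction. At day 2 the values were negative for 7 of the 9, among them Tdpoz3 with -2.28 ± 0.78, Zfp352 with -1.93 ± 0.88 and Zscan4b with -0.96 ± 0.44, while Tdpoz4 had 0.86 ± 0.60 and Tcstv1 had no count. By edgeR 0 were called here too, 3 had an unadjusted p under 0.05 and DESeq2 called 0, where 1.58% of all genes were called. Rn45s took between 16.2% and 20.9% of the counts in the TKO aggregates without cytokines and between 31.7% and 37.3% in those with them. With size factors computed without Rn45s, the summed level of the 9 genes at day 6 without cytokines was 62.8% of that with cytokines, the same as with all genes. These factors are medians over genes, so leaving out a single gene could hardly change them. Whether the ribosomal share bears on the cytokine comparison was not tested.

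The third question was the course in time. In TKO cells without cytokines, Zscan4d at day 2 was at least 39.7-fold higher than in EpiLCs, and Zscan4c differed by a log2 fold change of 4.55 ± 0.77. Of the 9 genes, 7 were called higher, where 4.73% of all genes were. With cytokines 5 were called higher, all 4 Zscan4 copies and Tdpoz4, where 3.08% of all genes were. From day 2 to day 6 without cytokines the 4 Zscan4 copies differed by between 3.10 ± 0.41 and 3.48 ± 0.50, Tcstv3 by 3.28 ± 0.83 and Tdpoz3 by 1.63 ± 0.61. The Zscan4 copies made up the 4 genes called higher, where 0.302% of all genes were. When either day 2 TKO library without cytokines was left out this count was 0, and when either wild-type day 6 library of the same medium was left out it was 7. With cytokines the differences from day 2 to day 6 were larger, 4.16 ± 0.44 to 4.58 ± 0.42 for the Zscan4 copies, 5.63 ± 0.82 for Zfp352 and 5.75 ± 0.91 for Tcstv3, and 8 genes were called, where 2.24% of all genes were. Without replicate 1 of the day 2 TKO cells with cytokines 5 were called.

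In wild-type cells fewer members were called. From EpiLCs to day 2 the log2 fold changes of the 4 copies lay between -1.36 ± 0.63 and -0.93 ± 0.53. By edgeR 0 of the 9 genes were called in this comparison, 1 had an unadjusted p under 0.05 and DESeq2 called 0, where 4.67% of all genes were called lower. From day 2 to day 6 without cytokines Zscan4d was at least 3.62-fold lower, and 3 copies were called lower, Zscan4b, Zscan4d and Zscan4f, where 6.02% of all genes were. Zscan4b, at a mean of 2.24 normalised counts at day 2 and 0 at day 6, was at or under the floor in both, so its call has no bound on the fold. Leaving out replicate 1 of the wild-type libraries at day 6 left 1 called. Between wild-type EpiLCs and day 6 cells with cytokines none of the 4 copies was called, with log2 fold changes from -1.38 ± 0.67 for Zscan4b to 1.20 ± 0.71 for Zscan4c. Zfp352 was called higher there, at least 2.38-fold, as 1 of the 9, where 7.58% of all genes were. This count was 0 without replicate 2 of the wild-type EpiLCs and 2 without replicate 1 of the wild-type day 6 cells with cytokines.

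Further genes of the two-cell programme were taken from a list of 46, of which 43 were present and 32 passed the filter. They are not members of the group, so edgeR's adjusted p-values are given for them, with 2 reservations. The list was drawn up with earlier results of these libraries known. Its genes were also able to pass the filter through the conditions in which they were high alone, so the counts called are partly set by the filter. Some are close to members. Zscan4a is a copy of the cluster, Gm20767 shares 50-base windows with Tcstv1, and AF067061 shares them with Tcstv3. At day 2 without cytokines 26 of the 32 were called higher in TKO than in wild-type cells and 0 lower. At day 6 without cytokines the count was 30 higher and 0 lower, and at day 6 with cytokines 30 higher and 1 lower. The background shares are the 9.43%, 14.4% and 4.58% given above. The medians of the 32 were 3.85, 6.41 and 4.93 on the log2 scale with genes at 0 set to their bound, beside 0.0044, 0.0052 and 0.0458 over all genes tested.

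Zscan4a, annotated as a pseudogene of the cluster, had 1110 and 1355 normalised counts at day 6 in TKO cells without cytokines and 0 and 0 in wild-type cells, at least 510-fold higher (adjusted p = 1.92e-08, edgeR's quasi-likelihood test). Usp17le, one of a family of deubiquitinating enzymes, had 683 and 887 against 0 and 0, at least 325-fold higher (adjusted p = 4.71e-10). Usp17lb of the same family had 1636 and 1670 with cytokines against 20.9 and 14.8, a log2 fold change of 6.53 ± 0.40 (adjusted p = 9.61e-07). At day 2 without cytokines Gm5662, a gene model with no further name, had 101.7 and 96.1 in TKO cells and 0 and 0.777 in wild-type cells, a ratio of 229 (40.6 to 9106; adjusted p = 6.82e-07). In all of these pairs the TKO and wild-type libraries were far from overlapping.

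Dux, the activator of the programme, had low counts throughout. It had 24.8 and 37.9 normalised counts at day 6 in TKO cells without cytokines and 108 and 76.9 with them, against 0 and 0, and 4.17 and 8.37, in wild-type cells. It was called higher in both comparisons, at least 12.96-fold without cytokines (adjusted p = 3.15e-05) and with a log2 fold change of 3.84 ± 0.61 with them (adjusted p = 0.000963). At day 2 without cytokines it had 7.265 and 3.60 against 0 and 0, at least 2.07-fold higher (adjusted p = 0.00785). Dux is described because of its role, and its values were known when it was picked. The share of unique sequence was not computed for Dux or for the other further genes except Zscan4a.

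A few listed genes, picked after their values were seen, departed from the rest. Fbxo15, an F-box gene of undifferentiated stem cells, was the most abundant, with 8984 and 10560 normalised counts at day 6 in TKO cells with cytokines and 2057 and 1593 in wild-type cells, a log2 fold change of 2.42 ± 0.42 (adjusted p = 0.00127). Zfp750 was called lower in TKO cells in that comparison, with 42.0 and 76.9 against 362.9 and 300.5 (-2.46 ± 0.39, adjusted p = 0.000624), and higher at day 6 without cytokines (2.57 ± 0.40, adjusted p = 7.27e-05). Lmx1a, a neural LIM homeobox gene, had 62.6 and 325 in wild-type day 6 cells without cytokines and 79.7 and 106 in the TKO cells, and was not called between them (adjusted p = 0.282). Pramef8 was called in none of the 4 genotype comparisons.

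**Figure D4:**
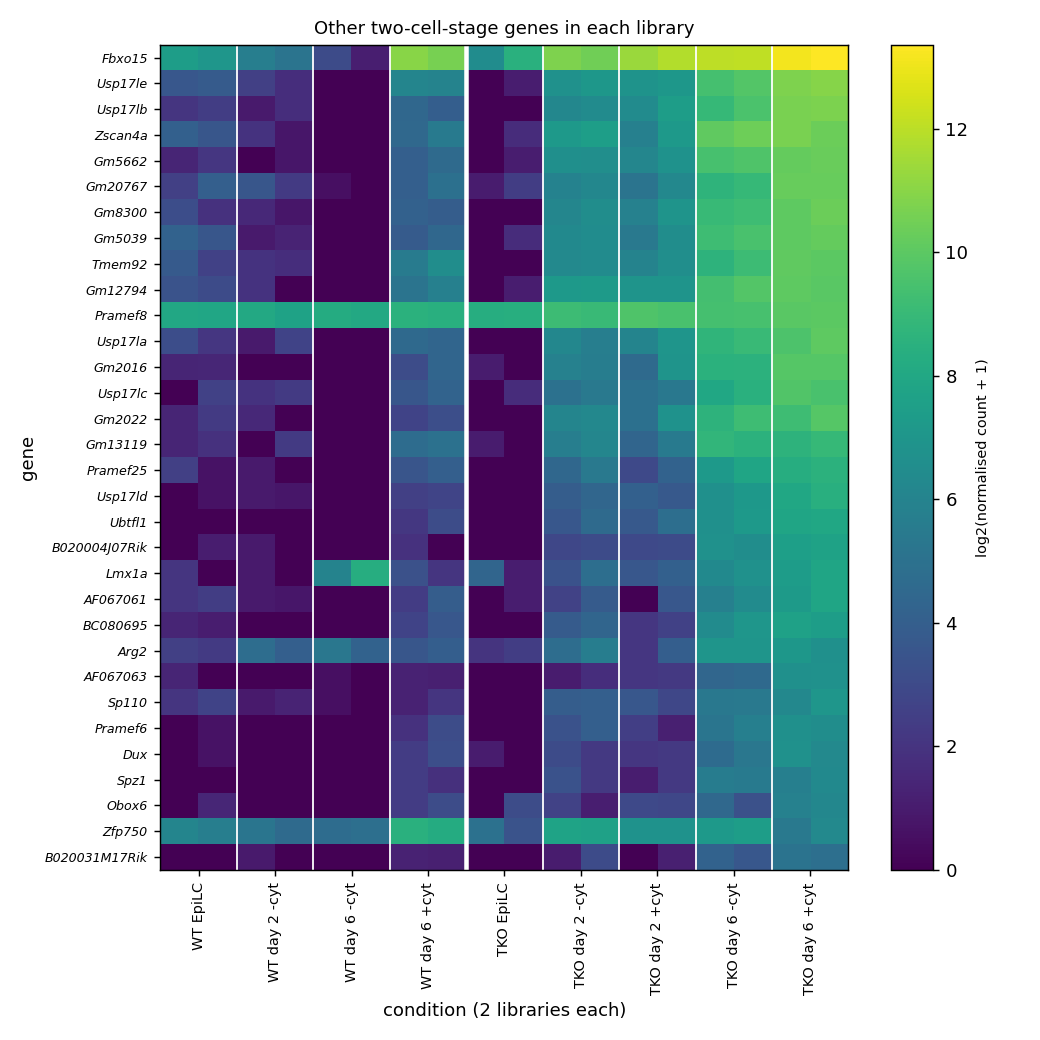
Log2 of normalised count plus 1 (colour) of the 32 further two-cell genes that passed the filter (rows, ordered by level at day 6 in TKO cells with cytokines) in 18 libraries (columns, 2 per condition). Most rows are dark in the 4 wild-type conditions and in TKO EpiLCs, and brighten from day 2 to day 6 in TKO cells, while Fbxo15, Pramef8, Zfp750, Lmx1a and Arg2 show other courses.

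In EpiLCs 7 of the 32 were called lower in TKO cells and 0 higher. None of the 7 reached a mean of 10 normalised counts over these libraries, so all rest on few counts. This count fell to 2 without replicate 1 of the wild-type EpiLCs or either TKO EpiLC library, and to 3 without replicate 2 of the wild-type EpiLCs. The cytokine comparisons differed between genotypes in this list as well. In wild-type cells at day 6, 26 were called higher and 1, Lmx1a, lower, where 12.7% of all genes were called higher. With genes at 0 set to their bound the median log2 fold change of the 32 was 2.45. Tmem92, a transmembrane protein gene, had 46.6 and 91.4 normalised counts with and 0 and 0 without cytokines there, at least 28.5-fold higher (adjusted p = 7.901e-07). In TKO cells at day 6, 1 was called higher, AF067063, with 102.5 and 107.9 against 20.5 and 22.7 (log2 fold change 2.30 ± 0.55, adjusted p = 0.02939). At day 2 by edgeR 0 were called, 7 had an unadjusted p under 0.05, and DESeq2 called 1. The AF067063 call was lost without either library of wild-type day 6 cells with cytokines, TKO day 2 cells without cytokines or TKO day 6 cells of either kind, and 1 gene was called at day 2 without either wild-type day 6 library without cytokines.

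The difference between the cytokine effects of the genotypes was tested as an interaction at day 6. The effect was smaller in TKO cells for 24 of the 32 genes and larger for 1, Lmx1a, where 11.8% of all genes were called with a smaller effect. For the 9 members the interaction was negative in all 9 and called in 6. The wild-type cells without cytokines were at 0 for 24 of the 32 genes and for all 9 members, so the size, the sign and the call of these terms depend on the offset that the fit adds to counts of 0. Among the 6 members called, the wild-type effect of Tdpoz3 was bounded at 0.81 on the log2 scale, beside a fitted 0.82 in TKO cells, and Zscan4b was at or under the floor in both wild-type conditions. Since the wild-type cells with cytokines are described as sorted and the TKO cells are not, the interaction cannot tell sorting from a difference between the genotypes. From EpiLCs to day 2 without cytokines the effect of time was larger in TKO cells for 19 of the 32 genes and for 5 of the 9 members, where 4.16% of all genes were called in this direction.

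In time, 25 of the 32 were called higher at day 2 without cytokines than in EpiLCs in TKO cells and 23 with cytokines, 17 higher from day 2 to day 6 without cytokines and 29 with them, and 0 were called lower in any of these 4 comparisons. Over all genes the shares called higher were 4.73%, 3.08%, 0.302% and 2.24% in the same order. Usp17lb had 70.6 and 87.7 normalised counts at day 2 in TKO cells without cytokines, 0 and 0 in TKO EpiLCs, and 503 and 772 at day 6 (day 6 against day 2: log2 fold change 3.01 ± 0.34, adjusted p = 0.00153). The count of 17 became 2 when replicate 1 of the day 2 TKO libraries was left out, 3 when replicate 2 of them was, and 8 when replicate 2 of the day 6 TKO libraries was. In wild-type cells 3 were called lower and 1 higher from EpiLCs to day 2, 7 lower and 1 higher from day 2 to day 6 without cytokines, and 18 higher and 0 lower from EpiLCs to day 6 with cytokines. Over all genes 4.67% and 6.02% were called lower in the first and second of these and 7.58% higher in the last. The 3 became 1 without either wild-type EpiLC library or replicate 2 of the wild-type day 2 cells and 5 without replicate 1 of the latter, the 7 became 4 without replicate 2 of the day 2 cells and 1 without replicate 1 of the day 6 cells, and the 18 became 9 without replicate 2 of the EpiLCs.

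Of 8 genes listed as activators, Dppa2 and Dppa4, DNA-binding proteins that act on the Dux locus, separated the genotypes without cytokines. Dppa2 had 387 and 308 normalised counts in wild-type EpiLCs, 20.5 and 5.44 at day 2 and 0 and 0 at day 6 without cytokines, but 480.5 and 440.1 at day 6 with cytokines. In TKO cells it had 387 and 368 in EpiLCs and between 681 and 1237 in the 8 aggregate libraries. The genotypes differed at day 2 by a log2 fold change of 6.08 ± 0.35 for Dppa2 (adjusted p = 5.95e-08, edgeR) and 4.40 ± 0.36 for Dppa4 (adjusted p = 6.19e-07). With cytokines at day 6 neither was called, with 1.22 ± 0.26 for Dppa2 (adjusted p = 0.00488) and -0.50 ± 0.30 for Dppa4 (adjusted p = 0.276).

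Tbx3, a T-box factor of naive pluripotency, and Smad7, an inhibitory SMAD, were also called higher in TKO cells at day 2 and day 6 without cytokines. Tbx3 had 2081 and 1924 against 12.7 and 21.75 normalised counts at day 2 (log2 fold change 6.79 ± 0.78, adjusted p = 1.34e-05), and Smad7 2522 and 2450 against 328.5 and 174 (3.28 ± 0.28, adjusted p = 7.08e-07). Nelfa, a subunit of the negative elongation factor, was called higher from day 2 to day 6 in TKO cells with cytokines, from 856 and 804 to 3600 and 3745 (2.15 ± 0.13, adjusted p = 1.019e-06). Zfp281, Kdm5b and Zbed3 were called in none of the comparisons. Dppa2, Dppa4, Tbx3 and Smad7 were the activators called higher with cytokines in wild-type cells at day 6. From wild-type EpiLCs to day 2 Dppa2, Dppa4 and Smad7 were called lower, as were Dppa2 and Dppa4 from day 2 to day 6 without cytokines. Tbx3 was called higher from TKO EpiLCs to day 2 in both media and from wild-type EpiLCs to day 6 with cytokines. In EpiLCs 0 of the 8 activators were called by edgeR, with 2 at an unadjusted p under 0.05.

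Of 24 genes listed as repressors, Trim28, the corepressor of retroviral elements, was called in no comparison. In EpiLCs it was lower in TKO cells, with 19400 and 18880 normalised counts against 35670 and 29680. At day 2 without cytokines the genotypes overlapped, with 14290 and 13750 against 13970 and 18390. With cytokines at day 6 it had 27070 and 24030 against 21650 and 19560. At day 6 without cytokines it had 13490 and 15890 normalised counts in TKO and 8370 and 10690 in wild-type cells (log2 fold change 0.64 ± 0.19, adjusted p = 0.0109). Genes called higher in TKO cells there were Rif1, a repressor of Zscan4 (2.07 ± 0.24, adjusted p = 4.49e-06), the DNA methyltransferase gene Dnmt3b (2.71 ± 0.29, adjusted p = 1.895e-06) and the RNA-binding protein gene Lin28a (2.24 ± 0.31, adjusted p = 2.62e-05). At day 2 and at day 6 with cytokines 0 of the 24 were called in either direction by edgeR, with 12 and 8 at an unadjusted p under 0.05. No listed repressor was called lower in TKO cells, but without the limit on the log2 difference several reached an adjusted p under 0.05. In the lower direction these were 2 of the 24 in EpiLCs, 6 at day 2, 5 at day 6 without cytokines and 4 with them. In the higher direction they were 0, 3, 10 and 1 in the same order. The share of all genes at this looser limit is not given here. Among those lower was Dnmt3b at day 2, with a mean of 4506 normalised counts in TKO and 14490 in wild-type cells (-1.72 ± 0.27, adjusted p = 0.000248, edgeR). In time, Dnmt3a was called lower from EpiLCs to day 2 in TKO cells with (-2.95 ± 0.30, adjusted p = 1.37e-05) and without cytokines (-2.22 ± 0.29, adjusted p = 0.000187) and in wild-type cells without them (-2.09 ± 0.29, adjusted p = 7.401e-05). The other calls among the repressors in single comparisons were Dnmt3b lower from EpiLCs to day 2 in TKO cells with cytokines, Dnmt3b and Lin28a lower from day 2 to day 6 in wild-type cells without cytokines, Dnmt3a, Dnmt3b and Lin28a lower from wild-type EpiLCs to day 6 with cytokines, and Rif1 higher with cytokines in wild-type cells at day 6.

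**Figure D5:**
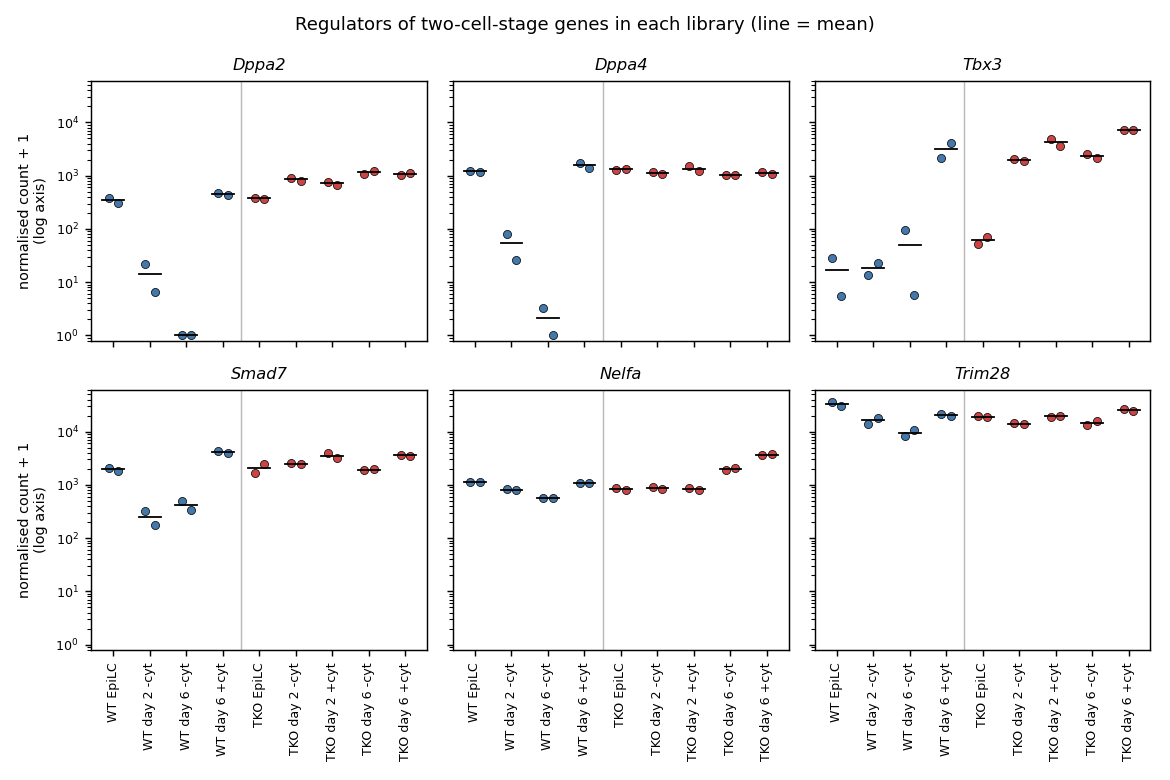
Normalised counts plus 1 (log axis) of 6 regulators of two-cell genes in each of the 18 libraries by condition (x axis), with blue points for wild-type, red points for TKO and a line at the mean of 2 libraries. Dppa2 and Dppa4 fall to between 0 and 2.27 normalised counts in wild-type day 6 cells without cytokines and stay at or above 368 in each TKO library, Tbx3 is high in TKO aggregates and in wild-type day 6 cells with cytokines, and Nelfa is highest in day 6 TKO cells.

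The genes most like the group in their course were sought among 15008 genes with a mean of at least 10 normalised counts over all libraries, by the Pearson correlation of log2(normalised count + 1) over the 9 condition means. These means share libraries and size factors with the group, so the coefficients are descriptions. Closest to the summed Zscan4 level were Gm20767 (r = 0.99), Eif4a3l1 (0.99), Gm21761 (0.98), Gm5039 (0.98) and Zscan4a (0.98). Of these, Zscan4a is itself a copy of the Zscan4 cluster, and Gm20767 and Gm21761 share 50-base windows with the member Tcstv1. Gm21761, with 4643 and 4839 normalised counts at day 6 in TKO cells with cytokines, and Eif4a3l1, with 3778 and 3636, lay above and below the summed Zscan4 copies at 4426 and 4322, without overlap. Closest to Zfp352 were Spz1 (0.997), Pramef6 (0.995), Gm12724 (0.99), BC080695 (0.99) and Gm36718 (0.99). By Spearman's coefficient over 18 libraries 4 of the 5 genes were shared for Zscan4 and 1 of 5 for Zfp352.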

How the data were processed

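RNA was depleted of ribosomal RNA, made into libraries with the NEBNext Ultra II Directional kit and sequenced on an Illumina NextSeq instrument. The authors deposited raw counts of reads per gene, which per the labels were made with Trim Galore 0.5.0, cutadapt 1.16, STAR 2.7.1a on mm10 and Subread 1.5.2. The setting for reads that map to several places is not given in the sources used here, and such reads are taken here as not counted. The 33 rows without a gene name were left out.

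Samples were grouped by the labels, 2 libraries in each of 9 conditions. The counts were fitted in R 4.3.3 with edgeR 4.0.16 (quasi-likelihood test, TMM factors, filterByExpr, all 18 libraries, a mean for each condition) and p-values were adjusted by Benjamini-Hochberg over 16582 genes. A call needed an adjusted p under 0.05 with an absolute log2 difference over 2. The SE was taken as the log2 fold change over the root of the F statistic. Normalised counts are counts over the size factor of DESeq2 1.42.0. Where a group had 0 counts the fold is a bound against 3 counts per library, and with 1 to 3 counts a ratio with a 95% exact counting interval is given. Fits were also run on simulated data, with the same spread set for every gene and changes put only into genes with higher counts. Calls of genes at or near 0 counts were not examined in this way. With 2 libraries against 2, an exact permutation test could not give a two-sided p below 0.333.

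The members and the gene lists were chosen with earlier results of these data known. Named were the members, up to 6 further two-cell genes per comparison by absolute log2 fold change among those called with a mean of at least 10 normalised counts, the activators and repressors called, with Dppa2, Dppa4 and Trim28 in any case, and the 5 genes most like Zscan4 or Zfp352. Genes outside this rule are said to be so where they appear. Alternatives were DESeq2, no filter, RLE factors, library size alone, a log2 limit of 1, a replicate block and leaving out each library. Transcripts of GENCODE M21 and promoters of RefSeq GRCm38.p6 were compared by local alignment with Biopython 1.88.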

Additional observations from a re-analysis of the deposited data

Results flagged for a closer look

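The difference between samples with and without cytokines at day 6 was not the same in TKO and wild-type cells by the interaction term of edgeR's quasi-likelihood test, given here as the TKO effect minus the wild-type effect on the log2 scale with its SE and adjusted p. Only the wild-type cells with cytokines are described as sorted, so sorting and a genotype difference cannot be told apart in this term. For further two-cell genes it was -8.18 ± 0.98 for Gm12794 (adjusted p = 1.52e-05), -8.11 ± 1.04 for Tmem92 (adjusted p = 4.12e-05), -7.87 ± 1.26 for Zscan4a (adjusted p = 0.0002), -7.85 ± 0.75 for Usp17le (adjusted p = 1.96e-06), -7.79 ± 1.21 for Gm13119 (adjusted p = 0.00015) and -7.21 ± 0.74 for Fbxo15 (adjusted p = 2.62e-06). Among the activators it was -12.06 ± 0.72 for Dppa2, -9.73 ± 0.63 for Dppa4 (both adjusted p = 3.24e-08), -4.19 ± 0.84 for Tbx3 (adjusted p = 0.000986) and -2.46 ± 0.36 for Smad7 (adjusted p = 6.73e-05). Of the repressors, Rif1 had -2.72 ± 0.33 (adjusted p = 1.29e-05) and Lin28a -2.35 ± 0.43 (adjusted p = 0.000467).

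The effect of time from EpiLCs to day 2 without cytokines also differed, TKO minus wild-type. It was 11.05 ± 1.47 for Gm8300 (adjusted p = 0.000384), 10.94 ± 2.14 for Gm2022 (adjusted p = 0.00507), 10.91 ± 1.33 for Tmem92 (adjusted p = 0.00021), 10.55 ± 1.47 for Usp17lb (adjusted p = 0.000539), 10.32 ± 1.05 for Gm12794 (adjusted p = 4.08e-05) and 10.29 ± 2.702 for Gm2016 (adjusted p = 0.0251). It was 5.92 ± 0.43 for Dppa2 (adjusted p = 4.5e-06), 4.24 ± 0.46 for Dppa4 (adjusted p = 5.05e-05), 4.39 ± 1.27 for Tbx3 (adjusted p = 0.0344) and 3.16 ± 0.36 for Smad7 (adjusted p = 7.4e-05). The calls of Gm2016 and Tbx3 here, and that of Lin28a for cytokines, were lost when single libraries were left out. Where a group was at 0 the size, sign and call of these terms depend on the offset the fit adds to counts of 0.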

How the results depend on the processing

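Of 240 recomputed counts of called genes over 30 results, 216 stayed within 1.5 times the reported count, as did the direction and call of 778 of 798 recomputed fold changes of named genes, and 0 reversed. With library size alone, TKO day 2 cells with against without cytokines gave 1 member and 2 further two-cell genes, and at day 6 it gave 0 further genes. DESeq2 and the fit without a filter each gave 1 further gene at day 2. A log2 limit of 1 gave 5 further genes for cytokines in TKO cells at day 6 and 5 lower from wild-type EpiLCs to day 2. Without a filter 7 members were called from day 2 to day 6 in TKO cells without cytokines. Leaving out single libraries gave 1 to 3 members and 2 to 9 further genes lower in TKO EpiLCs, 0 to 1 further gene for cytokines in TKO cells at day 2 and at day 6, and 4 to 7 members for cytokines in wild-type cells. From day 2 to day 6 it gave 0 to 7 members and 2 to 21 further genes in TKO cells without cytokines, 5 to 8 members with them, and 1 to 4 members and 1 to 8 further genes lower in wild-type cells. From wild-type EpiLCs it gave 1 to 5 further genes lower at day 2, and 0 to 2 members and 9 to 18 further genes higher at day 6 with cytokines. Where a condition was left with 1 library, that library was assumed to vary like the other conditions. The cause of these shifts was not tested. Library size alone moved the median of all genes to between -0.49 and 0.59 on the log2 scale.

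With the replicate number as a block, members called in TKO against wild-type cells were 8 at day 2 and 9 at day 6 without cytokines and 8 at day 6 with them, and the block moved no count of members or further two-cell genes by over 1.5 times. A pairing of samples by replicate number was not established. The differences between replicate 1 and replicate 2 were correlated weakly or not at all between conditions. Of 36 pairs of conditions 6 had a correlation over 0.1. The coefficients ran from -0.145 to 0.16, with a median of 0.011. Depth limits the wild-type values, where 3 counts cannot be told from 0, and the close copies limit comparisons between Zscan4 genes.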
